A study of Mus musculus with 8 samples.

Results

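Heparan sulfate is a long, negatively charged sugar chain that lung endothelial cells carry on proteins at their surface, and the 10 genes described here encode proteins that carry the chain or build it. They were chosen by symbol as the syndecans Sdc1, Sdc2, Sdc3 and Sdc4, the glypican Gpc1, the chain polymerases Ext1 and Ext2, and the sulfotransferases Ndst1, Ndst2 and Hs6st1. All 10 were found among the 34899 genes of the deposited table, and all 10 passed the filter, a normalised count of 10 or more in 4 or more libraries, that left 17067 genes for testing. The libraries came from lungs of female C57BL6 mice, 4 HF and 4 LF, from which endothelial cells had been isolated by sorting for CD31 and against CD45. The labels do not spell out HF and LF, and the title of the series names obesity and vascular inflammation. No transgene, drug or other agent is named for either group, and neither the age of the mice nor the time on any diet is stated by the labels. The labels give 1 mouse number per library and do not say whether lungs were pooled.

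Heparan sulfate chains are started on a short sugar linker at serines of a core protein, extended by a copolymerase of EXT1 and EXT2, and sulfated along the way. NDST enzymes replace acetyl groups with sulfate and open the chain to the later steps, among them sulfation at the sixth carbon of glucosamine by HS6ST enzymes. Syndecans hold the chains through a membrane-spanning core and glypicans through a lipid anchor. On endothelium, such chains form part of the glycocalyx, the sugar coat between blood and cell, where they bind chemokines, antithrombin and growth factors. In mice, loss of endothelial Ndst1 is known to reduce neutrophil recruitment.

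Values are the authors' normalised read counts. The reads assigned to genes ran from 14990589 to 20781564 in HF libraries and from 10631506 to 15516831 in LF libraries. HF 4 was the deepest and LF 1 the shallowest, and the part of depth in the values was not tested. Folds divide HF by LF, on the log2(normalised count + 1) scale, and carry 95% intervals, and the test was limma's moderated test, adjusted by the Benjamini-Hochberg method over all genes tested. The sorted cells carried endothelial transcripts, with Pecam1, which encodes CD31, at 28252 ± 1063 in HF and 25381 ± 6906 in LF (SD, n = 4 each), and Cdh5, the endothelial cadherin, at 13037 ± 196 in HF and 11154 ± 1655 in LF. Ptprc, which encodes CD45, was at 166 ± 72.8 in HF and 199 ± 59.0 in LF, the epithelial gene Epcam at 39.6 ± 11.2 in HF and 58.1 ± 36.7 in LF, and the collagen gene Col1a1 at 163 ± 79.1 in HF and 240 ± 89.6 in LF. The 9 leukocyte markers summed to 3381 to 6072 in HF and 5764 to 7298 in LF. Other epithelial genes were abundant, with the surfactant gene Sftpc at 4218 to 8007 in HF and 4073 to 10990 in LF, and Ager, of flat alveolar cells, at 2659 to 5415 in HF and 3481 to 9679 in LF. In such bulk libraries fewer cells of a type and less RNA per cell cannot be told apart. LF 1 and LF 2 stood apart from LF 3 and LF 4 over all genes, at -56.4 and -50.9 against 13.5 and 25.9 on the first principal component, so results are also given without each of these pairs.

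None of the 10 genes passed limma's test at an adjusted p under 0.05 (0 of 10, where 0% of the 17067 genes passed). On recovered reads, edgeR's quasi-likelihood test called 0% of the 17067 genes and therefore also called 0 of 10. At an unadjusted p under 0.05 limma gave 4 of the 10, against 11.0% of all genes tested. The 10 genes, and the pathway lists below, were chosen with earlier results of these data known. Shares set beside those of all genes therefore describe these sets and cannot test them. Sdc3, Ext2 and Ndst2 were the 3 higher in HF, where 6.36% of all genes were, and Sdc1 the 1 lower, where 4.67% were. In those 3 genes every HF value lay above every LF value, as in 3.47% of all genes tested. DESeq2 on the recovered reads called Sdc3 (adjusted p = 0.0132) and Ndst2 (adjusted p = 0.0220), 2 of 10 where it called 2.17% of genes, and 1.57% in the higher direction. The authors' deposited table also lists Sdc3 and Ndst2 at an adjusted p under 0.05, 2 of 10 against 2.04% of the genes with an adjusted p, and 1.58% in the higher direction. On the log2 scale 8 of the 10 genes averaged higher in HF, against 53.2% of all genes tested, among them Sdc4, whose sign turned with the scaling.

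**Figure D1:**
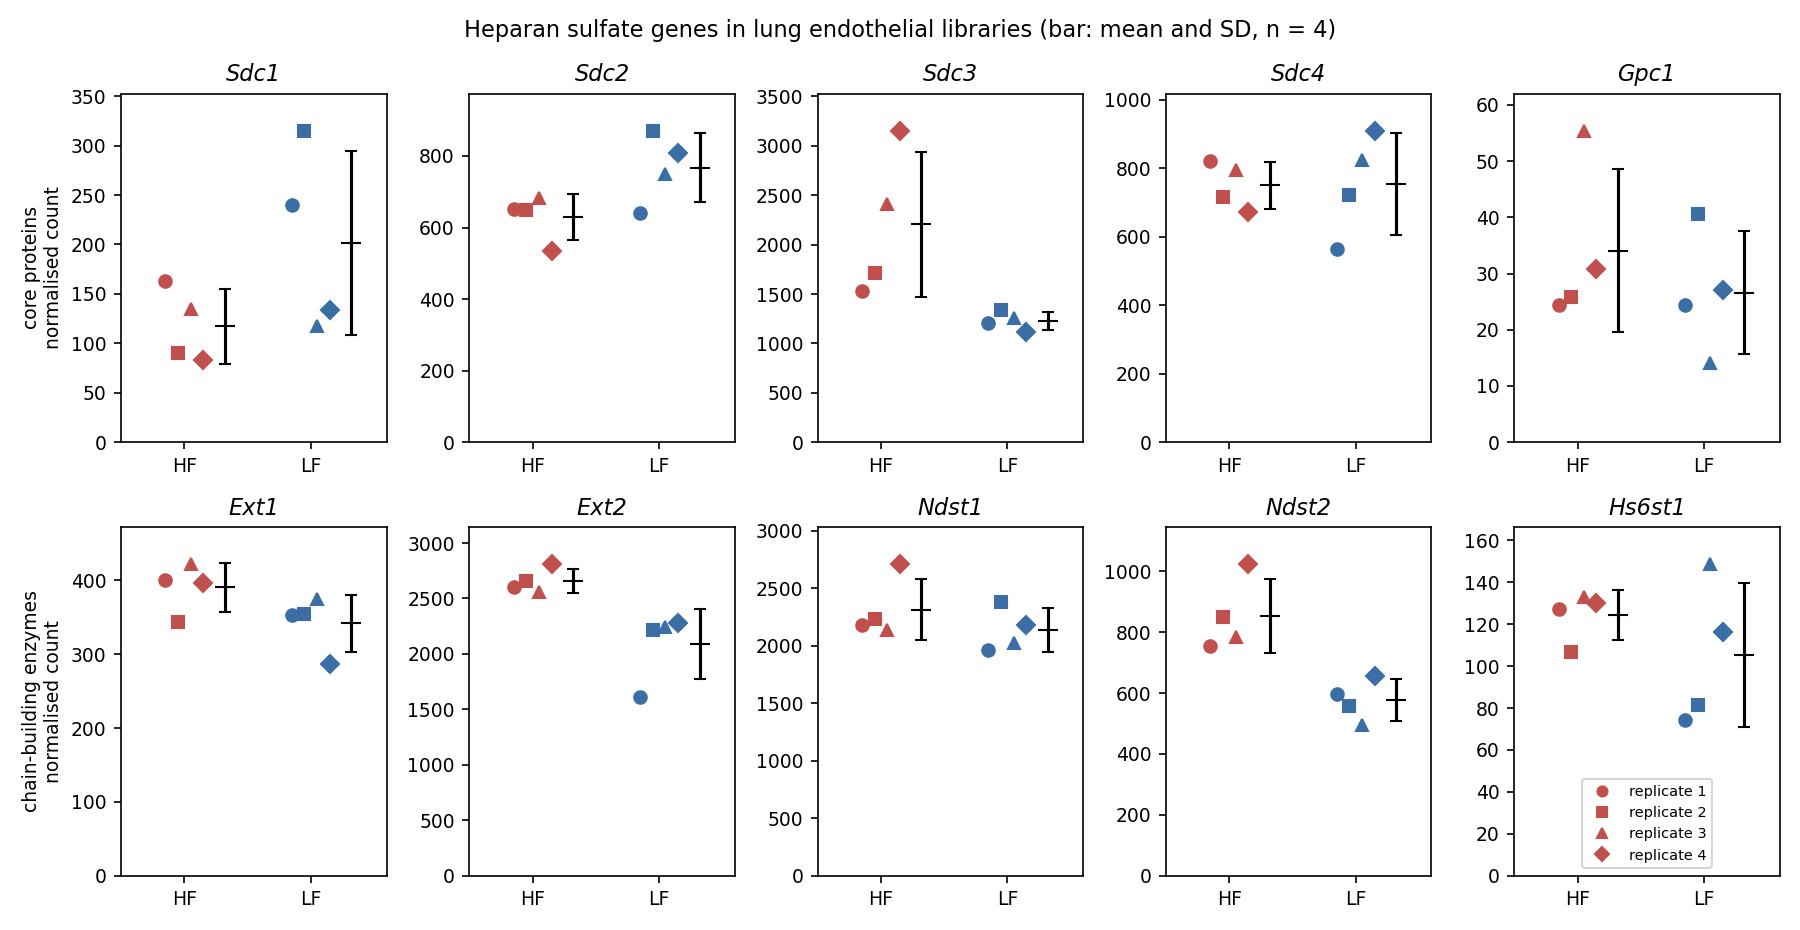
Normalised count on a linear axis from 0 for each of the 10 heparan sulfate genes in the 4 HF (red, left) and 4 LF (blue, right) libraries, with marker shape giving the replicate number and bars the group mean and SD. The HF points of Sdc3, Ext2 and Ndst2 all lie above the LF points, with Sdc3 spread from 1534 to 3152 in HF and Ext2 of LF 1 alone at 1614, while the other 7 genes overlap.

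Sdc3, first described as the neural syndecan, with a long extracellular domain, showed the largest fold among the 10 genes in the HF direction. It was at 1534, 1714, 2415 and 3152 in HF 1 to HF 4, against 1208, 1336, 1253 and 1116 in LF 1 to LF 4. The groups did not overlap, and HF 3 and HF 4 lay well above HF 1 and HF 2, which were closer to the LF values than to HF 4. The means were 2204 ± 737 in HF and 1228 ± 91.5 in LF (SD, n = 4 each), a fold of 1.73 (1.29 to 2.32; limma adjusted p = 0.174). The authors' deposited table gives a log2 fold change of 0.84 with a standard error of 0.21 (adjusted p = 0.010). HF 3 and HF 4 were also the libraries with the highest second principal component over all genes, at 29.1 and 29.6, against 2.18 and 9.35 in HF 1 and HF 2 and -38.5 to 3.81 in LF, and the part of that difference in the Sdc3 values was not tested. The log2 fold change of Sdc3 was 0.84 with LF 1 and LF 2 removed (adjusted p = 0.0734) and 0.74 with LF 3 and LF 4 removed (adjusted p = 0.0436), where limma called 3.76% and 20.0% of all genes. Without HF 4 it was 0.60 (limma adjusted p = 0.534). Sdc3 (ENSMUSG00000025743) lies on chromosome 4 from 130792537 to 130826319 on the plus strand in GENCODE M21 (GRCm38). Its exons share 463 bases with antisense gene models, of which Gm12970 had at most 1.22 normalised counts in any library and Gm26716 was not analysed here.

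Ndst2 encodes an N-deacetylase and N-sulfotransferase, in mice best known for the sulfation of heparin in mast cells. It was at 756, 851, 783 and 1023 in HF 1 to HF 4, against 598, 558, 496 and 657 in LF 1 to LF 4. The lowest HF library was above the highest LF library, with HF 4 again the highest. The means were 853 ± 120.1 in HF and 577 ± 67.8 in LF (SD, n = 4 each), a fold of 1.48 (1.20 to 1.81; limma adjusted p = 0.170). Ndst2 is listed in the authors' deposited table with a log2 fold change of 0.57 and a standard error of 0.15 (adjusted p = 0.0197). Its log2 fold change was close to the same without either LF pair, 0.57 with LF 1 and LF 2 removed (adjusted p = 0.0724) and 0.55 with LF 3 and LF 4 removed (adjusted p = 0.0196). Without HF 4 it was 0.47 (limma adjusted p = 0.537). In the GENCODE M21 annotation Ndst2 (ENSMUSG00000039308) lies on chromosome 14 from 20723730 to 20734562 on the minus strand and shares no exon bases with another gene.

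Ext2, a subunit of the copolymerase, was at 2599, 2658, 2558 and 2807 in HF 1 to HF 4, against 1614, 2216, 2240.1 and 2276 in LF 1 to LF 4. The HF values were close together, and LF 1 lay far below the other LF libraries. The means were 2656 ± 109 in HF and 2087 ± 316 in LF (SD, n = 4 each), a fold of 1.28 (1.06 to 1.56; limma adjusted p = 0.335). The log2 fold change was 0.23 with LF 1 and LF 2 removed (adjusted p = 0.284), 0.24 with LF 1 alone removed (adjusted p = 0.485) and 0.49 with LF 3 and LF 4 removed (adjusted p = 0.0208), so LF 1 moved the value by about 1.5 times. Ext2 (ENSMUSG00000027198) lies on chromosome 2 from 93661028 to 93822568 on the minus strand in the same annotation.

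The promoters of the 3 genes whose groups did not overlap are shown because the data single these genes out by their values, as RefSeq windows of 300 bases on GRCm38.p6, from 250 bases before to 50 after the start. Capitals mark the GC box GGGCGG, bound by SP and KLF factors, and the E-box CACGTG, on either strand. Of the 10 genes, 6 had a window in the RefSeq table.
Sdc3, chr4:130792287-130792586, plus strand: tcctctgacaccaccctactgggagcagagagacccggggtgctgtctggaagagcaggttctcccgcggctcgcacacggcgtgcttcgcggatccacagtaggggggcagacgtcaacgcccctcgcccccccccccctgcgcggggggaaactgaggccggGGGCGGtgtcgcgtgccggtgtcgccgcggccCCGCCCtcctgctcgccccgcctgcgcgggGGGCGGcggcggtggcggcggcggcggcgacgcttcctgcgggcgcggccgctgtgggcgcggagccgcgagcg
Ndst2, chr14:20734513-20734812, minus strand: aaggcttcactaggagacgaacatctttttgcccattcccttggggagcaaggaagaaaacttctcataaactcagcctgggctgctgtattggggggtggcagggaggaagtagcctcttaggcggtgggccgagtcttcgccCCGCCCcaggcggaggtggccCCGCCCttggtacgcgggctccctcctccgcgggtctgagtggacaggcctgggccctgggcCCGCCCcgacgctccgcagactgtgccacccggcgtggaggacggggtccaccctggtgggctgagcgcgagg
Ext2, chr2:93822519-93822818, minus strand: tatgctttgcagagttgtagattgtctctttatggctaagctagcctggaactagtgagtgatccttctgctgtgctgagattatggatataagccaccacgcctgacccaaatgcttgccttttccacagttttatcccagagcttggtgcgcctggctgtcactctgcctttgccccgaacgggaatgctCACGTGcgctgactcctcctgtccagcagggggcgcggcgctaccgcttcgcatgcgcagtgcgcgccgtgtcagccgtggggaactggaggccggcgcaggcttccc

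The Sdc3 and Ndst2 windows hold 3 GC boxes each and the Ext2 window none, where 35.7% of the 32851 promoter windows in the table hold at least 1. The E-box in the Ext2 window is found in 7.15% of all windows. The GC content was 77.7% for Sdc3, 66.7% for Ndst2 and 58.0% for Ext2, against a median of 52.7% over all windows. GC boxes were as frequent in the windows of genes whose groups overlapped, with 7 in Hs6st1, 4 in Sdc4 and 3 in Sdc1. Searches on both strands for the CCAAT box CCAAT, the TATA box TATAAA, the AP-1 site TGACTCA, the ETS core CCGGAA and the KLF core CACCC, whose matches may overlap those of other motifs, found the CCAAT box at 1 place and the KLF core at 3 in Ndst2, the KLF core at 2 in Sdc3, and none of the 5 in Ext2. All windows hold these motifs in 37.4%, 13.6%, 5.20%, 14.9% and 57.5% of cases in that order. A match describes letters only.

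Of the other core proteins, Sdc2 and Sdc1 were lower on average in HF, Gpc1 was higher on average, and Sdc4 lay close to no difference. Sdc2, the main syndecan of many mesenchymal cells and linked to angiogenic growth, was at 651, 649.6, 681 and 534 in HF 1 to HF 4, against 642, 870.1, 749.7 and 809 in LF 1 to LF 4. LF 1 lay among the HF values, and the other LF libraries lay above all HF libraries. The means were 629 ± 64.9 in HF and 768 ± 97.2 in LF (SD, n = 4 each), a fold of 0.821 (0.671 to 1.01; limma adjusted p = 0.460), and the log2 fold change kept its sign with LF 1 and LF 2 removed (-0.31) or LF 3 and LF 4 removed (-0.25).

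Sdc4, a broadly expressed syndecan of focal adhesions, was at 820.0, 715, 795 and 673 in HF 1 to HF 4, against 564, 722, 825 and 909 in LF 1 to LF 4. The HF values lay within the LF range. The means were 751 ± 68.5 in HF and 755 ± 149 in LF (SD, n = 4 each), a fold of 1.01 with an interval of 0.799 to 1.27 (limma adjusted p = 0.985). The sign of the Sdc4 difference turned with the LF pairs, at -0.21 on the log2 scale with LF 1 and LF 2 removed and 0.23 with LF 3 and LF 4 removed. Gpc1, the glypican that in cultured endothelium has been linked to the sensing of flow, was the least abundant of the 10 genes, at 24.4 to 55.4 normalised counts in HF and 14.1 to 40.6 in LF. Its fold of 1.28 had an interval of 0.727 to 2.27 (limma adjusted p = 0.727), which holds both lower and higher levels in HF. In the annotation 977 bases of its exons overlap Ankmy1 on the other strand, a gene at no more than 8.03 normalised counts.

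Sdc1, the syndecan of epithelia and plasma cells, averaged lower in HF, and its values followed the LF pairs. It was at 163, 89.8, 135 and 82.7 in HF 1 to HF 4, against 240.4, 315, 117 and 133 in LF 1 to LF 4. LF 1 and LF 2 were above every other library, while LF 3 and LF 4 lay among the HF values. The means were 118 ± 37.9 in HF and 202 ± 93.3 in LF (SD, n = 4 each), a fold of 0.611 (0.376 to 0.993; limma adjusted p = 0.445). The log2 fold change was -0.15 with LF 1 and LF 2 removed (adjusted p = 0.893) and -1.28 with LF 3 and LF 4 removed (adjusted p = 0.0122).

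LF 1 and LF 2 were the 2 highest libraries for 5 of the 12 epithelial markers, Epcam, Cdh1, Ager, Krt8 and Krt18. Epcam was at 33.5, 35.5, 56.4 and 33.1 in HF 1 to HF 4, against 80.5, 97.9, 29.1 and 24.9 in LF 1 to LF 4. The epithelial cadherin Cdh1 was at 137 to 420 in HF, against 565 and 816 in LF 1 and LF 2 and 176 and 331 in LF 3 and LF 4, and the keratin Krt8 at 121.8 to 207 in HF, against 349 and 461 in LF 1 and LF 2 and 147 and 263 in LF 3 and LF 4. Of 12 epithelial markers, 11 were tested and 1 of the 11 averaged higher in HF. Their summed level did not follow the LF pairs, at 21499, 20880.0, 25427 and 16563 in HF 1 to HF 4, against 25374, 35371, 21241 and 27464 in LF 1 to LF 4, and none was at 0 in every library. Of 8 plasma cell markers 7 had a row, and their summed level, in which the widely expressed Xbp1 was the largest part, was 7658 to 8348 in HF and 4462 to 8825 in LF. The plasma cell genes Mzb1 and Jchain were at no more than 1.78 and 13.4 normalised counts in any library. Ighm and Igkc of the same list averaged 80.6 and 43.6 over all libraries. The authors' deposited table gives them log2 fold changes of -1.08 and -0.58 (adjusted p = 0.0866 and 0.622). Of 4 tested plasma cell markers, 3 averaged lower in HF and 1 higher, at a median log2 fold change of -0.39. The part of epithelial and plasma cell RNA in the Sdc1 values was not tested.

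**Figure D2:**
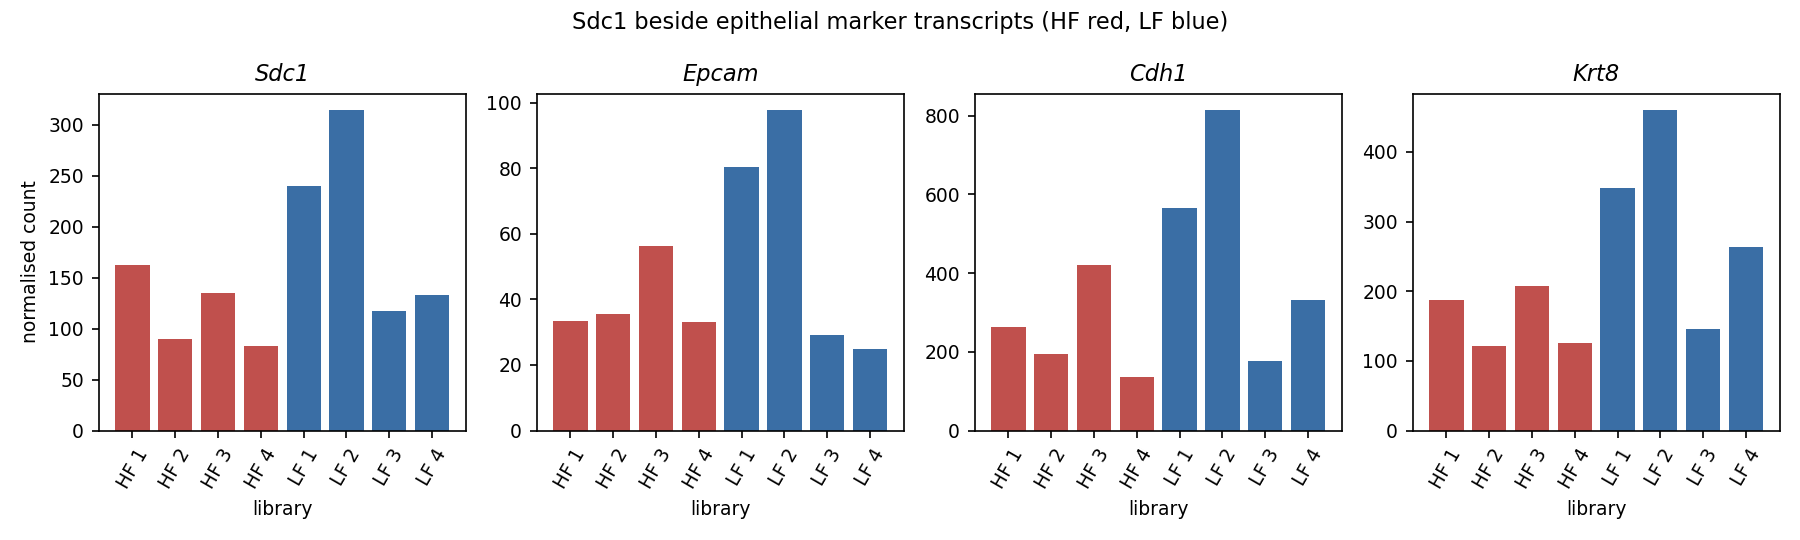
Normalised count on a linear axis from 0 of Sdc1 and the epithelial markers Epcam, Cdh1 and Krt8 in each library, HF in red and then LF in blue. In all 4 panels the tallest bars are LF 1 and LF 2, at 240.4 and 315 for Sdc1 and at 80.5 and 97.9 for Epcam. The markers drawn are among the 5 of 12 epithelial markers with these libraries highest, and the summed level of the 12 did not follow the LF pairs. Cdh1 and Krt8 were picked after their values were seen.

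Levels of different genes were compared per kilobase of exon, counted over all annotated exons of a gene, to lessen the effect of length. The lengths of the transcripts expressed were not measured, so the order of genes and the shares and ratios per kb depend on this annotation. Over all 8 libraries Ext2 was the highest at 324 normalised counts per kb, followed by Sdc4 at 296, Sdc3 at 287, Ndst1 at 269, Sdc2 at 198, Ndst2 at 157, Ext1 at 45.3, Sdc1 at 41.9, Hs6st1 at 20.7 and Gpc1 at 5.88. These run from the percentile 84.2 of all genes tested for Ext2 to the percentile 7.92 for Gpc1. Neighbours among the 4 highest genes differed by less than the larger of their SDs over the LF libraries, and a clear step separated Ndst2 from Ext1. In HF the order began with Sdc3 at 368 ± 123 and Ext2 at 362 ± 14.9 per kb, while in LF it began with Sdc4 at 296 ± 58.4 and Ext2 at 285 ± 43.1, with Sdc3 below Ndst1 and Sdc2 at 205 ± 15.3 (SD, n = 4 each).

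Sdc3 made up 31.8% to 54.6% of the summed level of the 4 syndecans per kb in HF libraries, against 23.1% to 30.2% in LF libraries. The share of Sdc2 was 15.7% to 23.8% in HF, against 27.2% to 29.5% in LF, so the shares of both genes did not overlap between the groups. Sdc4 took 27.4% to 39.97% in HF and 33.1% to 44.2% in LF. The summed level of the 4 syndecans was 775 to 964 per kb in HF and 668 to 836 in LF and overlapped. These shares follow from the values above and are given without a test.

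**Figure D3:**
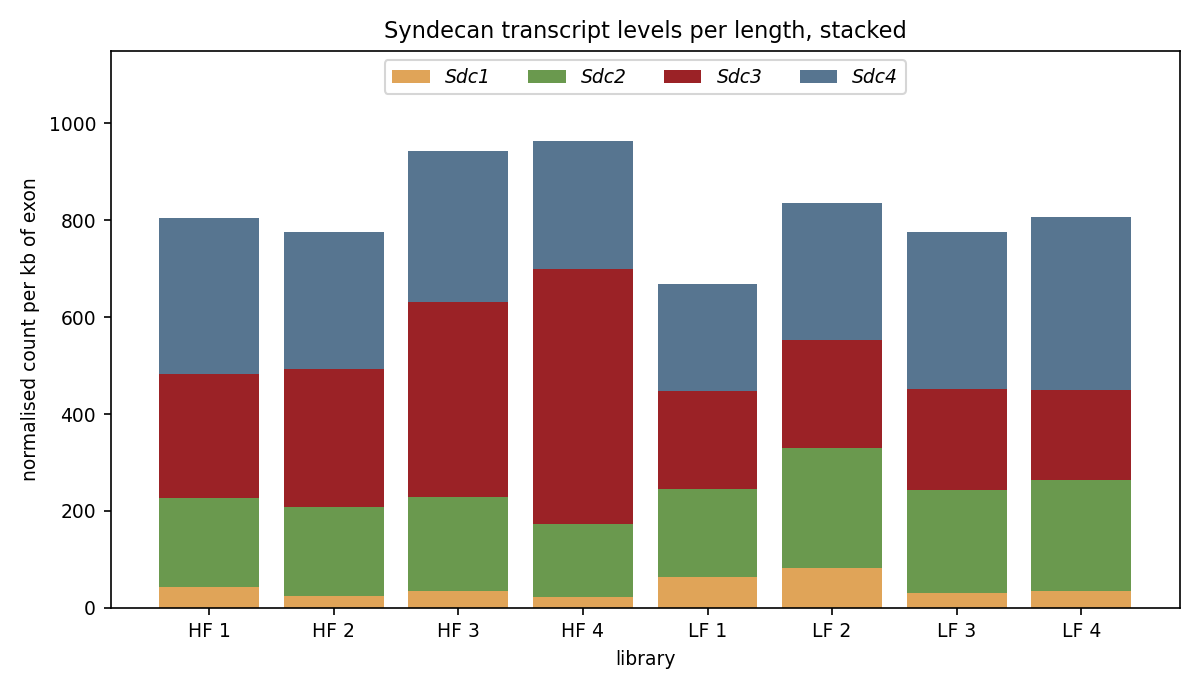
Stacked normalised counts per kb of exon of Sdc1, Sdc2, Sdc3 and Sdc4 on a linear axis from 0, with HF libraries on the left and LF libraries on the right. The Sdc3 segment is widest in HF 4, at 54.6% of that bar, and between 23.1% and 30.2% in the LF bars.

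Set beside the core proteins, the chain-building enzymes shared a direction. All 5 enzymes averaged higher in HF, at a median log2 fold change of 0.29, while 3 of the 5 core proteins did, at a median of 0.0096, with Sdc4 among the 3 turning sign under TMM factors, quantile normalisation, edgeR and DESeq2. The median over all genes tested was 0.023. Without LF 1 and LF 2 the medians were 0.23 for the enzymes, -0.15 for the core proteins and -0.027 for all genes, and without LF 3 and LF 4 they were 0.49, 0.030 and 0.032 in that order. With LF 1 and LF 2 removed 4 of the 5 enzymes averaged higher in HF, with Hs6st1 the exception. Without LF 1 and LF 2 limma called 0 of the 10 genes, where it called 3.76% of all genes. Without LF 3 and LF 4 it called 5 of 10, where it called 20.0% of all genes, with Sdc3, Ext2, Ndst2 and Hs6st1 higher in HF, where 14.0% of all genes were called higher, and Sdc1 lower, where 6.02% were.

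The enzymes beside Ext2 and Ndst2 differed less. Ndst1, the main N-sulfotransferase of endothelium in mice, was at 2184, 2233, 2132 and 2707 in HF 1 to HF 4, against 1958, 2383, 2020.3 and 2184 in LF 1 to LF 4. The groups overlapped, with HF 4 the highest, and the fold was 1.08 (0.902 to 1.30; limma adjusted p = 0.730). Ndst2 therefore made up 38.7% to 41.0% of the summed level of both genes per kb in HF, against 29.9% to 35.7% in LF, without overlap. Ext1, the partner of Ext2, was at 344 to 422 in HF and 286 to 375 in LF, a fold of 1.14 (0.930 to 1.41; limma adjusted p = 0.611). The level of Ext2 per kb was 6.69 to 8.52 times that of Ext1 in HF libraries and 5.05 to 8.77 times in LF libraries.

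Hs6st1, which sulfates the sixth carbon of glucosamine, was at 127, 107, 133 and 130.0 in HF 1 to HF 4, against 74.4, 81.3, 149 and 116 in LF 1 to LF 4. LF 1 and LF 2 lay below and LF 3 above all HF libraries. The fold was 1.22 (0.859 to 1.74; limma adjusted p = 0.656), and on the log2 scale it was at -0.088 with LF 1 and LF 2 removed and at 0.66 with LF 3 and LF 4 removed (adjusted p = 0.0469). The summed level of the 5 enzymes per kb was 855 to 1008 in HF and 645 to 775 in LF, without overlap. That of the 5 core proteins was 779.9 to 969 in HF and 673 to 844 in LF and overlapped. The core sum divided by the enzyme sum also overlapped, at 0.885 to 1.116 in HF and 1.042 to 1.094 in LF. In this ratio HF 3 was the highest of all libraries, while the other HF libraries lay below every LF library. The endothelial markers moved with the LF pairs as well, with a summed level over 10 genes of 159010 to 180785 in HF. It was 119046 and 128597 in LF 1 and LF 2 and 169249 and 191984 in LF 3 and LF 4. Of these 10 markers, 9 averaged higher in HF at a median log2 fold change of 0.19, or 8 under the other scalings. Without LF 1 and LF 2, 1 of the 10 did, at a median of -0.052, and without LF 3 and LF 4, 9 did, at 0.40. The part of endothelial RNA in the values of the enzymes and the pathway lists below was not tested.

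**Figure D4:**
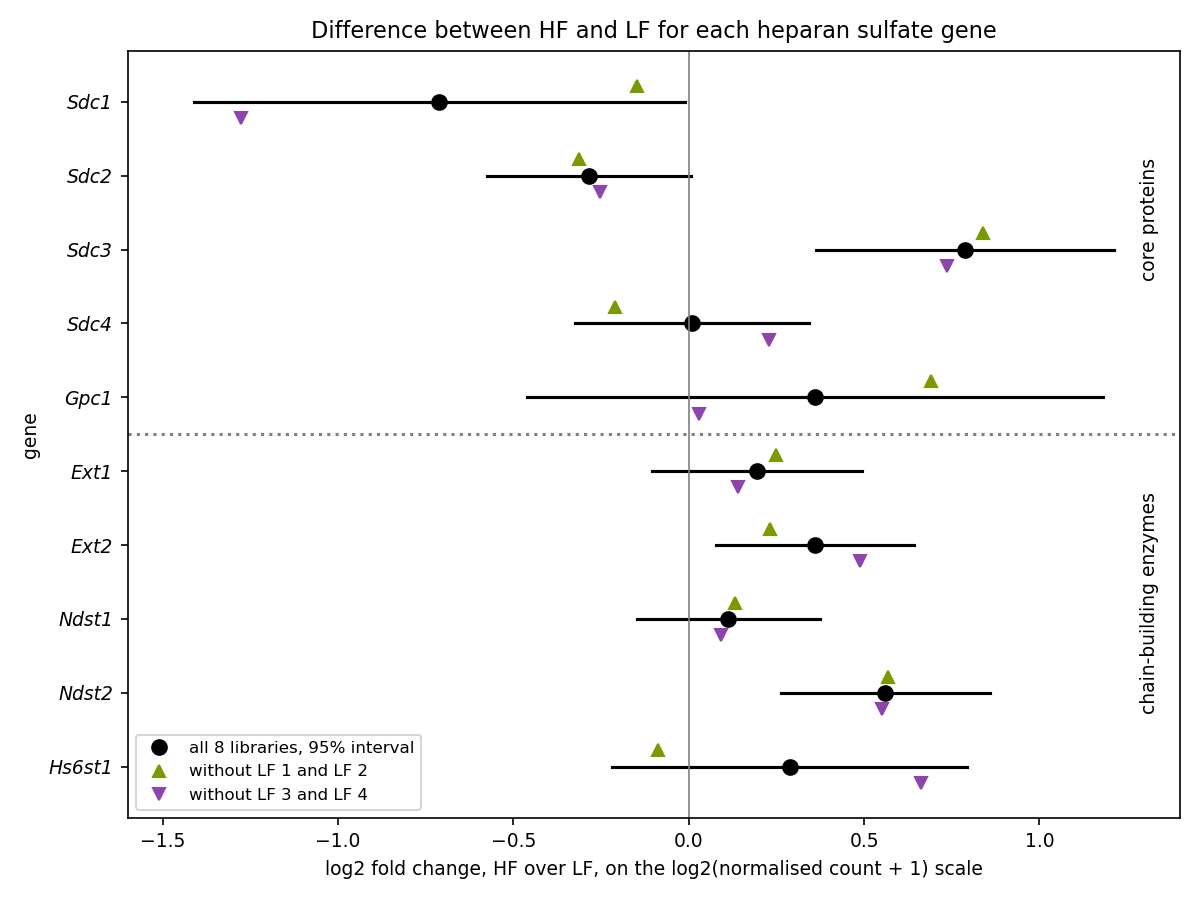
Log2 fold change of HF over LF for each gene, with black points and lines for all 8 libraries and their 95% intervals, and triangles for the values with LF 1 and LF 2 removed (green) or LF 3 and LF 4 removed (purple). The 3 values lie close together for Ndst2 (0.55 to 0.57) and Sdc3 (0.74 to 0.84) and far apart for Sdc1 (-1.28 to -0.15) and Hs6st1 (-0.088 to 0.66).

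Of the other listed genes, those of hyaluronan and chondroitin sulfate included, none of 76 that were tested passed limma's adjusted threshold. At an unadjusted p under 0.05, 11 were higher and 4 lower in HF, where 6.36% and 4.67% of all genes were. The hyaluronan and chondroitin sulfate lists each held 1 of the higher and 1 of the lower genes. By role, the genes listed for the linker and the start of the chain averaged higher in HF, at a median log2 fold change of 0.22. This held for 7 of 7 tested, and for 6 of 7 after quantile normalisation. B3galt6, which adds a galactose of the linker, was at 252, 318, 209 and 328 in HF 1 to HF 4, against 178, 177, 122 and 144 in LF 1 to LF 4. No LF value reached the HF values, and the fold was 1.77 (1.32 to 2.37; limma adjusted p = 0.164). The authors' deposited table lists B3galt6 with a log2 fold change of 0.83 and an adjusted p of 0.010. Without LF 1 and LF 2 limma called B3galt6 (log2 fold change 1.03, adjusted p = 0.0165), where 3.76% of all genes were called. Without LF 3 and LF 4 limma did not (0.61, adjusted p = 0.0509), where 20.0% of all genes were called. B3gat3, which completes the linker with glucuronic acid, had a fold of 1.28 (1.05 to 1.56; limma adjusted p = 0.348), also without overlap of the groups.

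Among the other sulfotransferases and the epimerase, 3 of 4 tested genes averaged higher in HF (median 0.25), and 6 more, with Ndst3 and Ndst4 among them, were below the filter. Glce, the epimerase that turns glucuronic into iduronic acid, had a fold of 1.29 (1.001 to 1.67; limma adjusted p = 0.450), and Hs3st1, which makes antithrombin-binding sites, was the most abundant of these at 4062 ± 411 in HF and 3447 ± 573 in LF (SD, n = 4 each; fold 1.19, 0.959 to 1.46; limma adjusted p = 0.540). Of the genes that supply sulfate donor and sugar nucleotides, 11 of 13 were higher on average in HF (median 0.20), or 9 to 10 under the other scalings. The sugar nucleotide transporter genes Slc35a3 and Slc35d1 had folds of 1.35 (1.07 to 1.71; limma adjusted p = 0.336) and 1.25 (1.04 to 1.51; limma adjusted p = 0.373), both without overlap of the groups. Slc35a3 shares exon bases with Gm43191 on its own strand. Without LF 1 and LF 2 the median was 0.026 for the linker and chain start, where 4 of 7 genes averaged higher in HF. It was 0.12 for the sulfotransferases (4 of 4) and -0.0052 for the supply genes (6 of 13).

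The other core proteins pointed the other way, with 5 of 6 tested genes at the lower mean in HF, 6 of 6 after quantile normalisation and 4 of 6 without LF 1 and LF 2, and a median of -0.31. Hspg2, which encodes the basement membrane proteoglycan perlecan, was at 79.8 ± 27.2 in HF and 137 ± 55.4 in LF (SD, n = 4 each), a fold of 0.593 (0.373 to 0.945; limma adjusted p = 0.397). Gpc4, a glypican, was at 83.5 to 114 in HF and 118 to 159 in LF, without overlap, as in 1.96% of all genes tested for HF below LF, a fold of 0.739 (0.555 to 0.985; limma adjusted p = 0.427). Markers of fibroblasts and of smooth muscle and pericytes were lower in HF as well, in 8 of 8 and 8 of 9 genes, or at least 6 of 8 and 7 of 9 under the other scalings. Their summed levels were 2306 to 4772 in HF and 3388 to 6876 in LF for fibroblasts, and 2831 to 3135 in HF and 3271 to 4925 in LF for smooth muscle and pericytes, with no marker at 0 in every library. Their part in the values of Hspg2 and Gpc4 was not tested.

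Genes of trimming and shedding were mixed, and those of lysosomal breakdown mostly averaged higher in HF. Of 9 tested genes for trimming and shedding, 5 averaged higher in HF (median 0.12), and 3 without LF 1 and LF 2. Sulf1, an endosulfatase that removes sulfate from finished chains, was at 528 to 584 in HF and 395 to 522 in LF, without overlap, a fold of 1.18 (0.967 to 1.43; limma adjusted p = 0.530), and the gelatinase Mmp9 was at no more than 28.6 normalised counts in any library. Of 8 lysosomal enzymes of heparan sulfate breakdown, 6 averaged higher in HF (median 0.19). Without LF 1 and LF 2, 6 did (median 0.22), and without LF 3 and LF 4, 7 did (median 0.25). The groups did not overlap for Hgsnat, an acetyltransferase, at a fold of 1.33 (1.09 to 1.63; limma adjusted p = 0.269). The intracellular partners of syndecans differed little, with 6 of 8 averaging higher in HF (median 0.09), 5 of 8 after quantile normalisation and 3 of 8 without LF 1 and LF 2. Gipc1, a PDZ protein that binds syndecan tails, had a fold of 1.10 (0.910 to 1.34; limma adjusted p = 0.685), and Pdcd6ip, which acts with syndecans and syntenin in exosome formation, of 1.11 (0.901 to 1.36; limma adjusted p = 0.693).

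**Figure D5:**
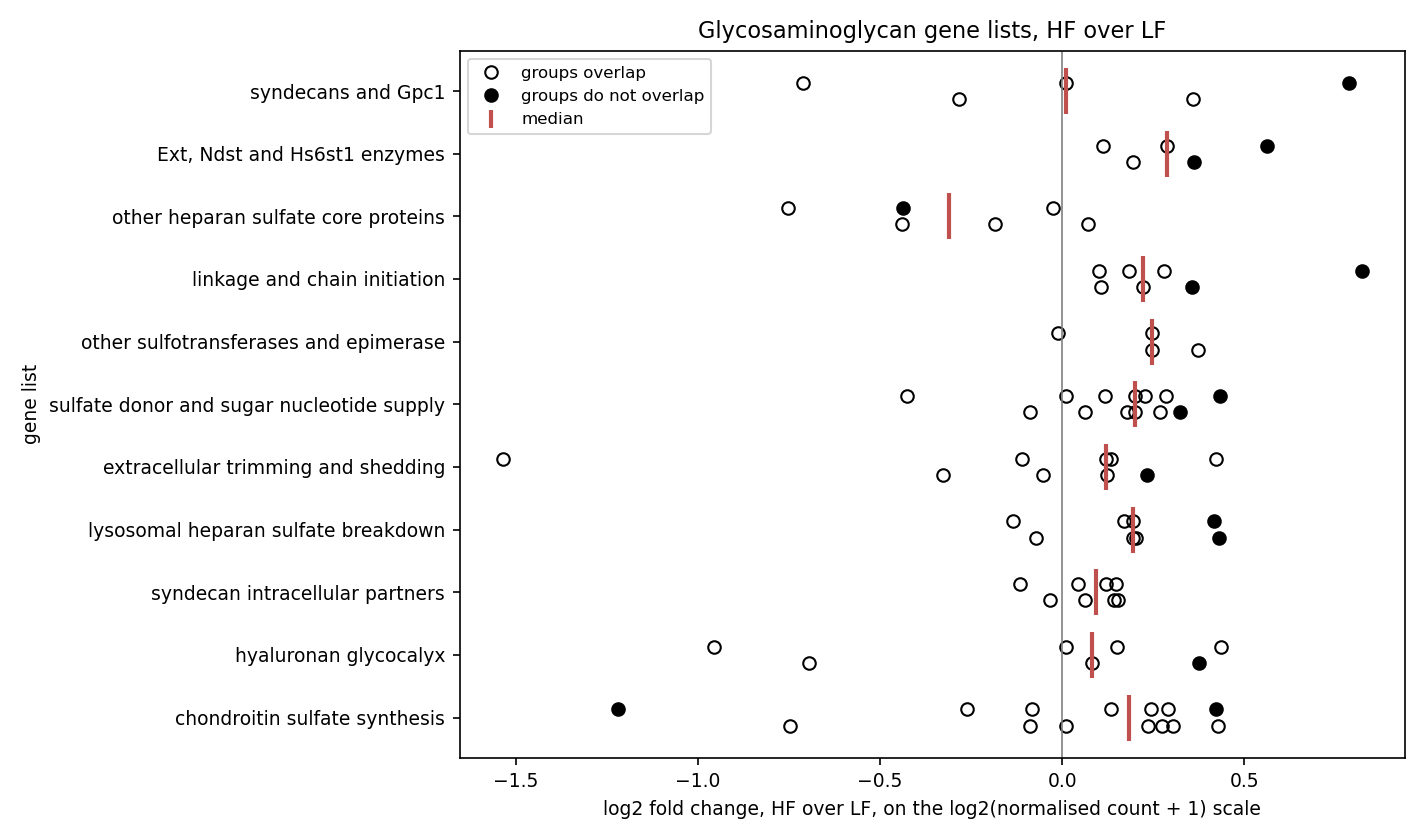
Log2 fold change of HF over LF of each tested gene in 11 gene lists, filled where the groups did not overlap, with a red bar at the list's median; points are shifted up or down only to keep them apart. The 5 chain-building enzymes and the 7 genes listed for the linker and chain start all lie to the right of 0. The other core proteins lie mostly to the left. The medians are 0.29, 0.22 and -0.31 in that order.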

How the data were processed

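RNA from 8 sorted lung endothelial samples had been made into SMART-Seq libraries, per the labels' protocols, and the submitters' processing notes list DESeq2 1.24.0, featureCounts 2.0.0 and STAR 2.6.1b. Neither the genome build nor the strand setting is given in the sources used here. The authors deposited normalised counts, a signal not scaled for length, and beside them the log2 fold change with its standard error, the Wald statistic (a score) and both the raw and the adjusted p-value, per the file headers. Whole reads were recovered by dividing by a size factor per library, and 100% of values were whole within 0.01 reads. Depth limits genes with few counts, and amplified reads without molecular identifiers are not independent molecules. Libraries are separate samples in the labels, and no pair agreed within sampling noise (lowest chi-square per degree of freedom 9.985).

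The main test was limma 3.58.1 in R 4.3.3, two-sided and without covariates, on log2(normalised count + 1) with its trend option, for the genes that passed the filter. DESeq2 1.42.0 and edgeR 4.0.16 with TMM were run on the recovered reads. Other alternatives were no filter, a minimum mean of 50, pseudocounts of 0.5 and 5, TMM factors, quantile normalisation, a replicate block, a threshold of 0.10, and leaving out single libraries or LF pairs. Scripts were tested on simulated data. Of 34899 gene IDs, 34873 matched GENCODE M21, used for positions, overlaps and exon lengths. The 10 genes and the lists were chosen with earlier results of these data known. Of each other list, the 2 tested genes with the smallest unadjusted p are named, with Pecam1, Cdh5, Ptprc, Epcam and Col1a1 always given; 1 gene that this names is not reported here. Cdh1, Krt8, Krt18, Ager, Sftpc, Xbp1, Mzb1, Jchain, Ighm and Igkc were picked from the marker lists after their values were seen. Of 96 genes on the other lists, those of hyaluronan and chondroitin sulfate included, 91 had a row and 76 were tested.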

Additional observations from a re-analysis of the deposited data

Results flagged for a closer look

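Of 56 groups of 4 values looked at, 3 held a library far from the other libraries of its group, where chance flags about 1 in 20. Ext2 was at 1614 in LF 1, the lowest of 4, against 2216 to 2276 in the other LF libraries. Gpc4 was at 159 in LF 2, the highest of 4, against 118 to 124 in the other LF libraries. Sulf1 was at 528 in HF 3, the lowest of 4, against 574 to 584 in the other HF libraries.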

How the results depend on the processing

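The count of genes called by limma was 0 of 17067, 1 without the filter, 313 by DESeq2, 641 without LF 1 and LF 2, 3421 without LF 3 and LF 4, and 0 to 1 with single libraries left out, where LF 2 and LF 4 each gave 1. Of the 10 heparan sulfate genes, 2 were called by DESeq2, 5 without LF 3 and LF 4, 0 without LF 1 and LF 2 and 0 with any single library left out. Of the 76 tested genes on the other lists, those of hyaluronan and chondroitin sulfate included, 2 were called without LF 1 and LF 2. Without LF 3 and LF 4 it was 23. The shares over all genes there were 3.76% and 20.0%. DESeq2 called 2 of the 73 with an adjusted p, where it called 2.17% of all genes. With any single library left out 0 were called. The enzyme median of 0.29 was 0.49 without LF 3 and LF 4 and 0.21 to 0.40 with single libraries left out. The cause of these differences was not tested.

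Sdc4, at 0.0096, had the opposite sign with edgeR (-0.022), DESeq2 (-0.027), TMM factors (-0.0081), quantile normalisation (-0.090) and without LF 1 and LF 2 (-0.21), and ranged from -0.12 to 0.11 with single libraries left out. Hs6st1 was at -0.088 without LF 1 and LF 2. The other 8 genes kept their sign under every alternative in which they were tested, and Gpc1 was not tested with a mean of at least 50. Same-numbered HF and LF libraries did not deviate together (correlations of 0.115, -0.222, -0.143 and 0.185), and the best match of HF 1 was LF 2. With the replicate block 0 genes were called, and 0 of the 10.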

Other observations

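Genes of the other surface sugars were measured in the same libraries. Among 7 tested hyaluronan genes, 5 averaged higher in HF (median log2 fold change 0.08), or 3 to 4 under the other scalings. Cemip2, a cell surface hyaluronidase, was at 16671, 15692, 15291 and 16465 in HF 1 to HF 4, against 11489, 13113, 11508 and 13427 in LF 1 to LF 4, without overlap, a fold of 1.30 (1.07 to 1.57; limma adjusted p = 0.309). The authors' deposited table lists Cemip2 with an adjusted p of 0.0343, and a gene model on the other strand overlaps it. Has1, a hyaluronan synthase, was at 23.6 to 71.1 in HF and 41.8 to 120.1 in LF, a fold of 0.515 (0.273 to 0.972; limma adjusted p = 0.431).

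Of 14 tested genes of chondroitin sulfate synthesis, 9 averaged higher in HF (median 0.18), or 8 under the other scalings. The groups did not overlap for Chst12, a sulfotransferase of chondroitin, at 1064 ± 81.6 in HF and 802 ± 133 in LF (SD, n = 4 each; fold 1.34, 1.08 to 1.65; limma adjusted p = 0.297), nor, in the other direction, for Chst3, at 14.6 to 51.5 in HF and 57.7 to 88.7 in LF (fold 0.429, 0.254 to 0.725; limma adjusted p = 0.217). Without LF 1 and LF 2 the medians were -0.095 for hyaluronan and -0.010 for chondroitin genes, and without LF 3 and LF 4 they were 0.38 and 0.17.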
